A study of Mus musculus with 9 samples.

Results

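A set of 57 named genes of mouse chromosome 15 was followed through 9 RNA-seq libraries of the MC38 colon carcinoma line and its liver-metastatic derivatives. The genes were selected on earlier comparisons of the derivatives with the parental line in these same libraries, where the chromosome as a whole had a lower transcript level, so their levels against the parental line are given here as a description, and counts of members past a statistical limit in those comparisons support nothing. Of the 57 genes, 56 were among the 16399 genes listed, and Khdrbs3, an RNA-binding splicing regulator, was not analysed here. Another member, the polycomb subunit Cbx7, stayed between 0 and 0.19 TPM (a transcript level scaled for transcript length and library size), and 55 members passed the filter of at least 1 TPM in 3 libraries together with 11287 genes in all, 461 of them on chromosome 15. Of the 55, Osmr and Fbxo32 alone lay below 1 TPM in any library.

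MC38-P is the parental line, a C57BL/6 mouse colon carcinoma labelled with GFP and firefly luciferase. MC38-LM3a and MC38-LM3b are derivatives obtained independently after 3 rounds of intrasplenic injection into immunocompetent C57BL/6 mice, resection of the liver lesions and expansion in culture, and each group holds libraries of 1 such derived line. Each group had 3 replicate libraries of cells grown in culture, all with the label genes of the parental line. The study's methods call them biological replicates, and whether they were separate cultures is not stated, so p-values measure the spread between these samples. DNA copy number was not measured, so that the term dosage could not be checked here and only the RNA level is described, and in bulk RNA fewer cells with a transcript and less transcript per cell cannot be told apart.

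Chromosome gains and losses are frequent in cultured carcinoma cells, and for most autosomal genes the amount of transcript tends to follow the number of gene copies, because no general mechanism restores the level. Exceptions are known among genes under strong feedback or stress control. Chromosome 15 of the mouse carries the oncogene Myc, the cohesin subunit gene Rad21, and many genes for chromatin regulators, translation factors and cytokine receptors.

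The labels give the cells as epithelial cells of the colon. Of 11 colon epithelial markers, 7 reached 1 TPM in at least 1 library, with mean levels (MC38-P, MC38-LM3a, MC38-LM3b) of 1127, 806 and 764 TPM for Krt8, 907, 768 and 726 TPM for Krt18, 114, 149 and 108 TPM for Krt19, 5.76, 2.05 and 2.21 TPM for Epcam, 2.27, 0.63 and 0.41 TPM for Cdx2, 0.69, 1.48 and 1.15 TPM for Krt20 and 0.58, 0.46 and 0.63 TPM for Lgals4. Krt8 and Krt18 are themselves chromosome 15 genes outside the set. The defining markers Cdh1, Cdx1, Vil1 and Muc2 did not exceed 0.13 TPM in any library, so the labelled cell type is only partly borne out by the markers. The 5 hepatocyte markers and the 1 T cell marker (Cd2) that are listed stayed below 1 TPM in every library. Of 3 listed macrophage markers Cd68 alone reached 1 TPM, at mean levels of 28.8, 36.6 and 43.4 TPM. Of 4 listed endothelial markers Cdh5 alone did, at mean levels of 1.06, 0.72 and 1.07 TPM. The summed fibroblast markers lay at 15.9 to 22.1 TPM in MC38-P, 6.46 to 9.47 TPM in MC38-LM3a and 8.83 to 9.97 TPM in MC38-LM3b, mostly through Col1a1 at means of 13.99, 4.07 and 4.30 TPM, while Pdgfrb of the same list went the other way at 1.54, 2.13 and 3.66 TPM. The part of these markers in the results was not tested. A pair of libraries stood apart from their own replicates along transcript length: the deviation of all tested genes from the other replicates correlated with transcript length at Spearman's rho = -0.61 in MC38-P replicate 3 and at 0.64 in MC38-LM3a replicate 3. Their fellow libraries, whose reference includes the library that stood apart, lay on the opposite side, at 0.50 and 0.41 for MC38-P replicates 1 and 2 and at -0.54 and -0.51 for MC38-LM3a replicates 1 and 2, while the MC38-LM3b libraries were at -0.01 to 0.01. Since each library is measured from its fellows, these values show that replicates of MC38-P and of MC38-LM3a differ along transcript length, not which of them is nearer the true level, and the difference can enter any comparison with these groups. Values are therefore given as deposited and, for the main results, again after a correction for GC content and transcript length in each library, here called corrected values.

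The members had a lower level in both derivatives, by a similar amount. The measure used is the relative change, that is the difference in mean log2(TPM + 1) from MC38-P less the median difference of the tested genes on other chromosomes, which was 0.01 for MC38-LM3a and 0.22 for MC38-LM3b. The 55 members had a median relative change of -0.62 in MC38-LM3a, with quartiles of -0.71 and -0.42, and of -0.52 in MC38-LM3b, with quartiles of -0.67 and -0.29. After correction both medians were -0.58. In TPM, the median member stood at 64.9% of its MC38-P level in MC38-LM3a and at 67.9% in MC38-LM3b, once scaled by the other chromosomes. Both comparisons share the MC38-P libraries and are not independent of each other.

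Each library showed the shift on its own. Measured from the MC38-P mean, the median member lay at 0.03, 0.04 and -0.07 in MC38-P replicates 1 to 3, at -0.64, -0.61 and -0.53 in MC38-LM3a, and at -0.52, -0.51 and -0.52 in MC38-LM3b. The derivative libraries were thus all far below the parental ones, and within MC38-LM3a the library that stood apart gave the smallest shift. Corrected values were -0.57, -0.57 and -0.55 in MC38-LM3a and -0.59, -0.57 and -0.58 in MC38-LM3b, against -0.01 to 0.01 in MC38-P. The heat map of members by library shows the same shift gene by gene.

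**Figure D1:**
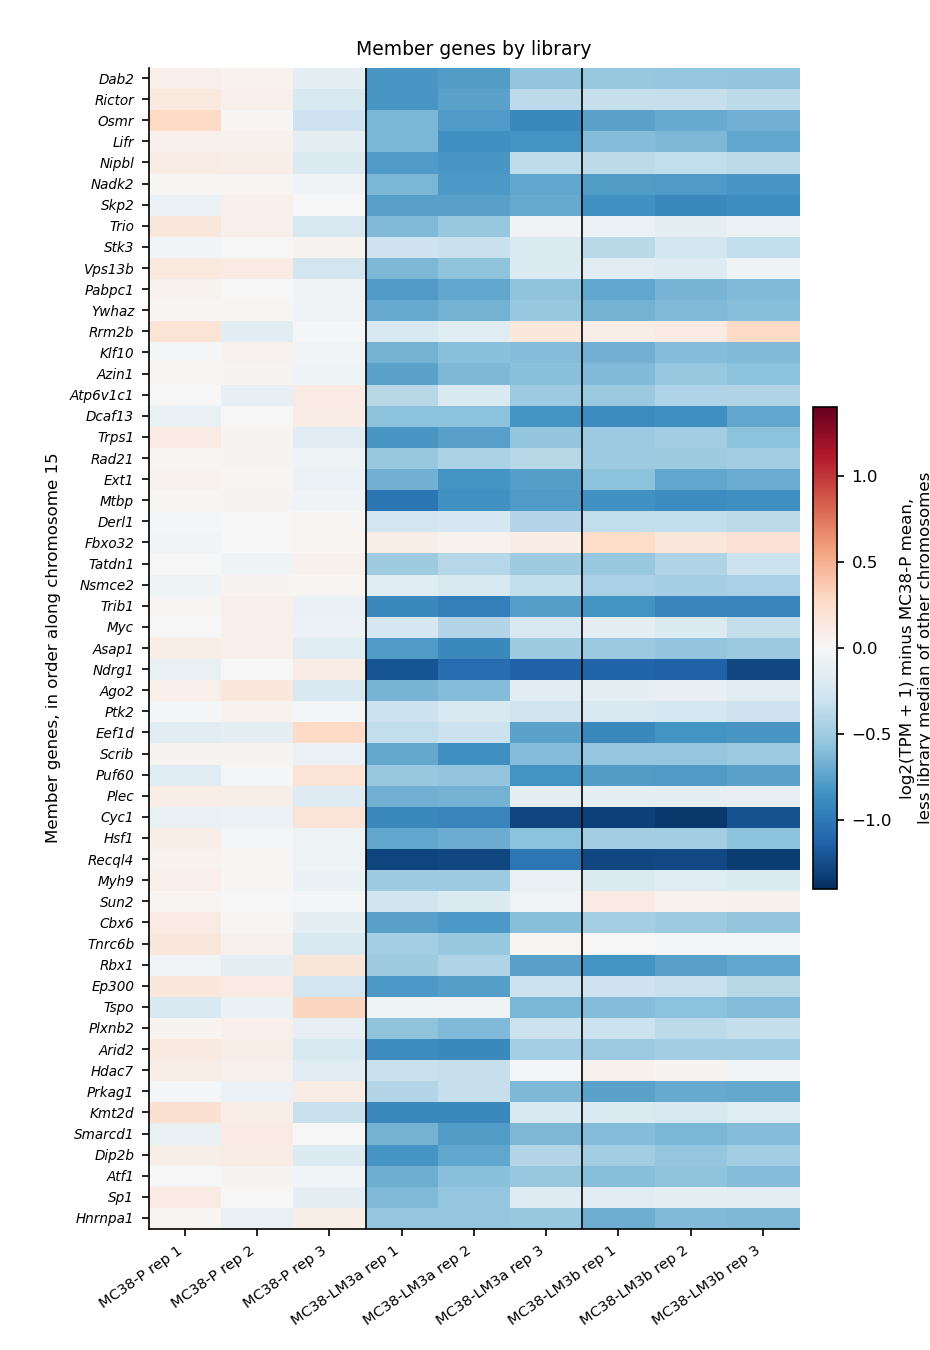
Relative change of the 55 tested members (rows, in order along chromosome 15) in each of the 9 libraries (columns), as log2(TPM + 1) minus the MC38-P mean and less the library's median over other chromosomes. Most rows are blue in all 6 derivative libraries, with Fbxo32 in light red and Ndrg1, Cyc1 and Recql4 in the darkest blue.

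For the record, in a fit over all genes by limma with Benjamini-Hochberg adjustment, 39 of 55 members were lower in MC38-LM3a at an adjusted p below 0.05, where 13.8% of all genes were lower, and 0 were higher, where 14.1% of all genes were. In MC38-LM3b, 26 members were lower, against 11.2% of all genes, and 1 member, Fbxo32, was higher, against 35.6% of all genes. With corrected values the counts of lower members were 51 in MC38-LM3a, where 25.0% of all genes were lower, and 47 in MC38-LM3b, where 28.0% were. All 3 libraries of MC38-LM3a lay below all 3 of MC38-P in TPM for 33 members, as for 15.9% of all genes, and the same held for 30 members in MC38-LM3b, as for 15.4% of all genes. Since the members were chosen from these same contrasts, the counts were shaped by that choice, are no test of the members, and nothing is read from them.

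The rest of chromosome 15 was lower as well. The 406 tested genes of the chromosome that are not members had a median relative change of -0.54 in each derivative, or -0.51 after correction, somewhat nearer 0 than the corrected median of the members, and 8.13% and 10.1% of them lay above 0, a difference that was not tested. The other 19 chromosomes had medians between -0.03 and 0.09 in MC38-LM3a and between -0.04 and 0.08 in MC38-LM3b, as the plot of chromosome medians shows. Genes did not lie closer together on the shifted chromosome: the SD of relative changes over all 461 chromosome 15 genes was 0.45 for MC38-LM3a and 0.50 for MC38-LM3b, beside 0.40 and 0.45 over the genes of other chromosomes. The members had an SD of 0.25 and 0.33, a spread that their choice may have set.

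**Figure D2:**
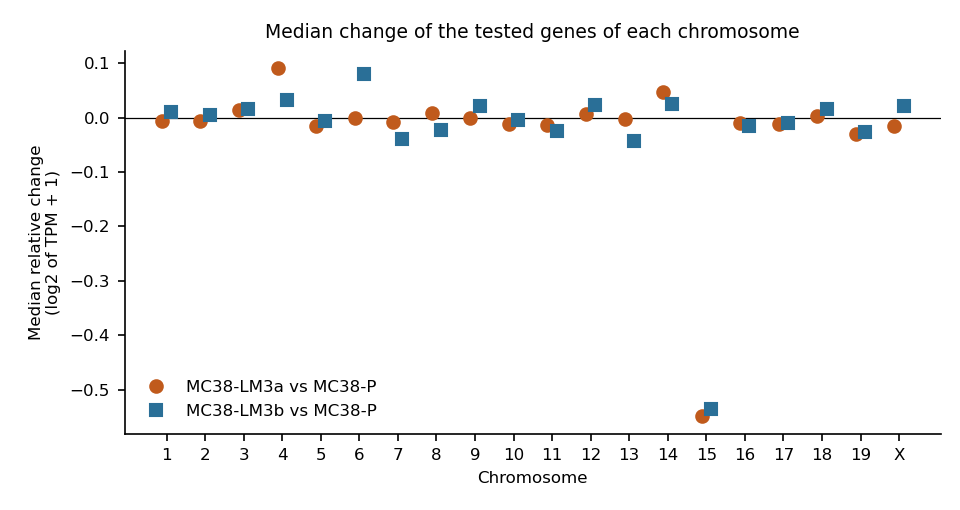
Median relative change (log2 of TPM + 1, y axis) of the tested genes of each chromosome (x axis) in MC38-LM3a (circles) and MC38-LM3b (squares) against MC38-P. Chromosome 15 lies at -0.55 and -0.53, and all other chromosomes between -0.04 and 0.09.

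The shift ran over the whole length of the chromosome. Split into stretches of 20 Mb by gene position in GRCm38, the median relative change of all tested genes per stretch lay between -0.44 and -0.57 in MC38-LM3a and between -0.50 and -0.58 in MC38-LM3b. After correction the last stretch, from 100 Mb on, was nearer 0, at -0.39 and -0.38, than the other stretches, which lay between -0.51 and -0.62 in MC38-LM3a and between -0.53 and -0.55 in MC38-LM3b, a difference that was not tested. The members' own medians were -0.72 and -0.66 in the first stretch, which holds Dab2, Rictor, Osmr, Lifr, Nipbl, Nadk2 and Skp2, and -0.56 and -0.55 in the last, or -0.70 and -0.76 and -0.57 and -0.61 after correction. Over the 55 members the relative change correlated with position at Spearman's rho = 0.15 for MC38-LM3a and 0.10 for MC38-LM3b, or 0.23 and 0.16 after correction, and with mean TPM at 0.23 and -0.17, or 0.11 and -0.09 after correction, values given as a description of genes that share all libraries. With transcript length it correlated at -0.09 in MC38-LM3a and at 0.48 in MC38-LM3b, or 0.20 and 0.28 after correction.

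**Figure D3:**
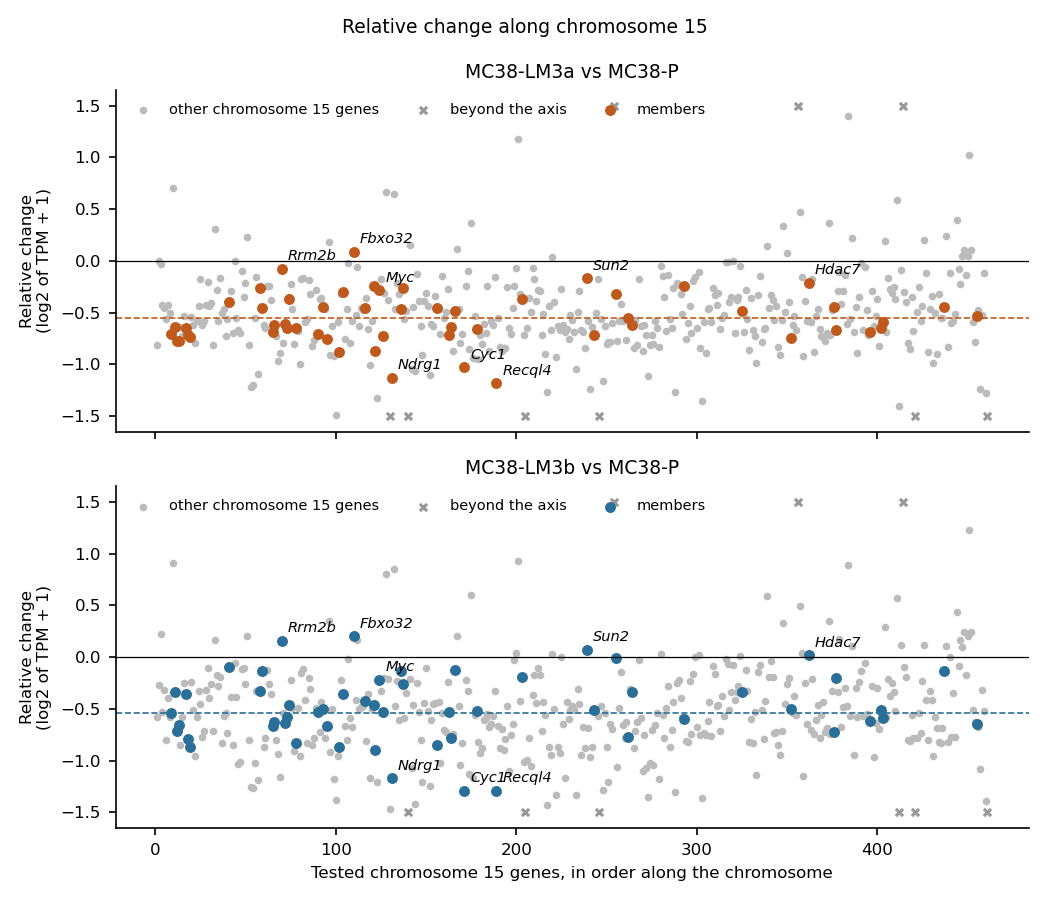
Relative change (log2 of TPM + 1, y axis) of the 461 tested chromosome 15 genes in order along the chromosome (x axis), in MC38-LM3a (upper panel) and MC38-LM3b (lower panel), with the 55 members as coloured points, other genes in grey, the chromosome's median as a dashed line and genes beyond 1.5 as crosses at the edge (9 genes in each panel, none of them members). Members lie on both sides of the dashed line over the whole length, and the genes around the members named on the plot vary widely.

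Among the 6 transcription factors, the median relative change was -0.60 (MC38-LM3a) and -0.52 (MC38-LM3b), the order in which paired values are given from here on, or -0.65 and -0.53 after correction. Trps1, a GATA-type repressor, had -0.70 and -0.53, Klf10, a TGF-beta-induced zinc-finger factor, -0.61 and -0.64, Hsf1, the heat shock factor, -0.66 and -0.52, and Atf1, a CREB-family factor, -0.59 and -0.59. Atf1 was the member nearest to the chromosome's median in both comparisons together, at 105, 104 and 85.8 TPM in MC38-P, 58.3, 61.8 and 76.2 TPM in MC38-LM3a and 76.0, 77.0 and 74.4 TPM in MC38-LM3b, with no overlap between MC38-P and either derivative. Sp1, a GC-box-binding factor, had the weaker values of -0.44 and -0.13.

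Myc, the growth-promoting oncogene at chr15:61985391-61990374, was a low transcript in these cells. It was measured at 10.3, 10.4 and 8.00 TPM in MC38-P, at 7.62, 6.55 and 9.14 TPM in MC38-LM3a and at 10.4, 9.74 and 8.65 TPM in MC38-LM3b. The groups overlapped, and its relative change was -0.28 and -0.22, or -0.30 and -0.15 after correction, with a standard error (SE) of 0.10. This is a smaller shift than the chromosome's median of -0.55 and -0.53.

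The chromatin regulators had a median of -0.68 and -0.42 over 6 tested members, or -0.58 and -0.54 after correction. Cbx6, a polycomb chromobox protein, had -0.72 and -0.51, Arid2 and Smarcd1, subunits of SWI/SNF remodelling complexes, -0.75 and -0.50 and -0.69 and -0.62, and Ep300, a histone acetyltransferase, -0.62 and -0.33. Kmt2d, an H3K4 methyltransferase with the longest transcript of the members at 19823 bases, was moved strongly in the libraries that stood apart: it was listed at 29.8, 26.4 and 17.1 TPM in MC38-P, at 11.8, 11.6 and 23.2 TPM in MC38-LM3a and at 24.5, 23.7 and 24.5 TPM in MC38-LM3b. Replicate 3 of MC38-P and replicate 3 of MC38-LM3a ran against their own groups, so that MC38-P and MC38-LM3a overlapped. Its relative change of -0.67 in MC38-LM3a became -0.40 after correction, and that of -0.20 in MC38-LM3b became -0.22.

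Cohesin and repair genes had a median of -0.55 and -0.48 over 6 members, or -0.53 and -0.51 after correction. Rad21, the cleavable cohesin subunit at chr15:51962240-51991747, was among the members nearest to the chromosome's median, at 378, 365 and 298 TPM in MC38-P, 231, 242 and 297 TPM in MC38-LM3a and 285, 285 and 285 TPM in MC38-LM3b. Each MC38-P library was above each derivative library, by a narrow margin for MC38-P replicate 3 over MC38-LM3a replicate 3, and the relative change was -0.45 and -0.50. Nipbl, the cohesin loader, had -0.65 and -0.36, Nsmce2, a SUMO ligase of the SMC5/6 complex, -0.24 and -0.46, and Mtbp, a factor in replication origin firing, -0.88 and -0.86.

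Genes for RNA binding and translation had a median of -0.54 and -0.67 over 7 tested members, or -0.58 and -0.67 after correction. Pabpc1, the cytoplasmic poly(A)-binding protein and next to Hnrnpa1 the most abundant member, was measured at 1664, 1537 and 1305 TPM in MC38-P, 834, 858 and 1144 TPM in MC38-LM3a and 1060, 1108 and 1128 TPM in MC38-LM3b, with no overlap between MC38-P and the derivatives and a relative change of -0.69 and -0.67. Hnrnpa1, a splicing regulator with the highest mean level of the members, was measured at 1645, 1450 and 1439 TPM in MC38-P, 998, 983 and 1175 TPM in MC38-LM3a and 1102, 1142 and 1127 TPM in MC38-LM3b, again with no overlap between MC38-P and the derivatives, and had -0.54 and -0.65. Reads of Pabpc1, Hnrnpa1, Ywhaz and Rbx1 can be shared with processed pseudogenes, so their levels are less certain. Eef1d, an elongation factor subunit, had -0.46 and -0.85, Puf60, a splicing factor, -0.63 and -0.78, and Dcaf13, a ribosome biogenesis factor, -0.65 and -0.83. The silencing factors Ago2 and Tnrc6b, both with long transcripts, had -0.47 and -0.14 and -0.32 and -0.01, or -0.37 and -0.25 and -0.23 and -0.11 after correction.

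The 5 genes of protein turnover had a median of -0.55 and -0.77, or -0.62 and -0.79 after correction. Among them Skp2, an F-box protein that targets the cell cycle inhibitor p27, had -0.74 and -0.87, Rbx1, the RING subunit of cullin ligases, -0.55 and -0.77, Trib1, a pseudokinase adaptor, -0.87 and -0.90, and Derl1, a channel subunit of the endoplasmic reticulum, -0.30 and -0.35. The 11 receptor and signalling members had a median of -0.62 and -0.53, or -0.58 and -0.57 after correction. Lifr and Osmr, receptor chains for interleukin-6-family cytokines, had -0.77 and -0.66 and -0.77 and -0.71 at levels of 0.65 to 4.16 TPM, where the added 1 compresses a change. Osmr was listed at 2.90, 2.14 and 1.22 TPM in MC38-P, 0.86, 0.65 and 0.82 TPM in MC38-LM3a and 1.10, 1.15 and 1.18 TPM in MC38-LM3b, so that no derivative library reached a parental one, though MC38-P replicate 3 was only just above MC38-LM3b. In TPM relative to the other chromosomes, Osmr stood at 36.9% and 46.6% of MC38-P and Lifr at 46.8% and 56.3%. With 0.1 in place of the added 1, Osmr was at -1.26 and -0.97. Rictor of mTOR complex 2 had -0.64 and -0.34, Dab2, an endocytic adaptor, -0.71 and -0.54, Asap1, an Arf GTPase-activating protein, -0.73 and -0.53, the 14-3-3 protein gene Ywhaz -0.62 and -0.63, Plxnb2, a semaphorin receptor, -0.49 and -0.33, and Prkag1, a subunit of AMPK, -0.45 and -0.72. Ptk2, the focal adhesion kinase, Stk3, a Hippo pathway kinase, and Trio, a guanine nucleotide exchange factor, had the weaker corrected values of this class, -0.22 and -0.27, -0.31 and -0.38, and -0.27 and -0.22.

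The 10 genes of metabolism and organelles had a median of -0.65 and -0.59, or -0.63 and -0.66 after correction. Ext1, a heparan sulfate polymerase, had -0.76 and -0.67, Nadk2, the mitochondrial NAD kinase, -0.72 and -0.79, and Azin1, an antizyme inhibitor of the polyamine pathway, -0.65 and -0.58. Dip2b, another member near the chromosome's median, was measured at 17.2, 16.7 and 11.6 TPM in MC38-P, 7.72, 8.16 and 12.6 TPM in MC38-LM3a and 12.4, 11.8 and 12.2 TPM in MC38-LM3b, so that MC38-P overlapped both derivatives through its replicate 3, with a relative change of -0.65 and -0.51. Tatdn1 had -0.46 and -0.42, Atp6v1c1, a proton pump subunit, -0.37 and -0.46, and Vps13b, a lipid transfer protein, -0.46 and -0.13. Tspo, a mitochondrial outer membrane protein with the shortest transcript of the members at 837 bases, was listed at 521, 546 and 628 TPM in MC38-P, 523, 517 and 407 TPM in MC38-LM3a and 434, 440 and 426 TPM in MC38-LM3b. MC38-LM3a overlapped MC38-P and MC38-LM3b did not, and the relative change was -0.24 and -0.60, or -0.23 and -0.30 after correction. The value for MC38-LM3a turned to 0.09 without MC38-P replicate 3 and MC38-LM3a replicate 3.

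The 4 genes of cytoskeleton and polarity had the smallest median shift of the classes after correction, -0.25 and -0.22. Scrib, a polarity scaffold, was at -0.61 and -0.59 in corrected values, Myh9, the heavy chain of nonmuscle myosin, at -0.29 and -0.31, and Plec, a linker between intermediate filaments and junctions, at -0.21 and -0.13. The class of 4 was drawn up with these values known and carries no test. The plot of corrected against uncorrected values shows that long transcripts such as Plec and Kmt2d moved most in MC38-LM3a and that the short Tspo moved most in MC38-LM3b.

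**Figure D4:**
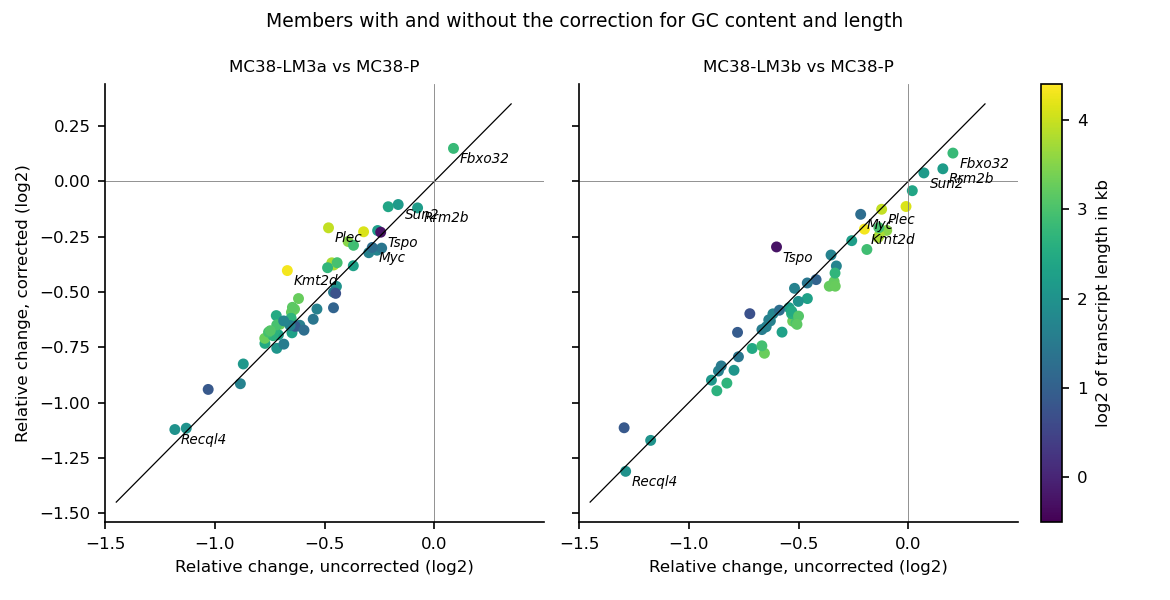
Relative change of the 55 tested members as deposited (x axis, log2) against the same value corrected for GC content and transcript length (y axis, log2), for MC38-LM3a (left) and MC38-LM3b (right), coloured by log2 of transcript length in kb, with the line of equal values. Fbxo32 is above 0 in both panels, and Tspo moves from -0.60 to -0.30 in MC38-LM3b.

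A single member, Fbxo32, a muscle atrophy F-box protein also called atrogin-1, was above 0 in relative change in both derivatives. It lies at chr15:58175879-58214932 (GRCm38, minus strand) and was a rare transcript, listed at 1.09, 1.07 and 0.85 TPM in MC38-P, 1.06, 0.97 and 1.42 TPM in MC38-LM3a and 1.81, 1.60 and 1.66 TPM in MC38-LM3b. In TPM, MC38-LM3b lay above the other libraries without overlap, while MC38-LM3a and MC38-P overlapped. In corrected values by library, MC38-LM3b at 0.08 to 0.18 overlapped MC38-LM3a at 0.03 to 0.23 and MC38-P at -0.1 to 0.14. The relative change was 0.09 and 0.20, or 0.15 and 0.13 after correction with an SE of 0.10. On the TPM scale, where the added 1 does not compress a low level, it was at 114% and 143% of MC38-P relative to the other chromosomes. Its neighbours among the members on either side, Derl1 and Tatdn1, were at -0.32 and -0.33 and at -0.57 and -0.44 in corrected values.

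Rrm2b, Sun2 and Hdac7 were below 0 in MC38-LM3a and above 0 in MC38-LM3b. Rrm2b, the p53-inducible subunit of ribonucleotide reductase at chr15:37923952-37961318, was measured at 11.5, 8.48 and 8.08 TPM in MC38-P, 7.47, 7.68 and 11.8 TPM in MC38-LM3a and 11.9, 11.9 and 13.4 TPM in MC38-LM3b. In TPM, MC38-LM3a overlapped MC38-P, and MC38-LM3b lay above both other groups, though by very little over their highest libraries. Less each library's median over other chromosomes, all groups overlapped. On that scale MC38-P replicate 1 was at 0.19 and MC38-LM3a replicate 3 at 0.15, above MC38-LM3b replicates 1 and 2 at 0.09 and 0.11. Its relative change was -0.08 and 0.16, or -0.12 and 0.06 after correction with an SE of 0.10, between Ywhaz at -0.65 and -0.63 and Klf10 at -0.65 and -0.63.

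Sun2, an inner nuclear membrane protein that links the lamina to the cytoskeleton, was measured at 62.1, 58.2 and 49.9 TPM in MC38-P, 44.7, 46.8 and 62.2 TPM in MC38-LM3a and 72.1, 68.1 and 68.3 TPM in MC38-LM3b. In TPM its MC38-LM3b libraries were above all others, and those of MC38-LM3a and MC38-P overlapped. In corrected values MC38-P replicate 3, at 0.022, lay just above MC38-LM3b replicate 2, at 0.017. The relative change was -0.16 and 0.07, or -0.10 and 0.04 after correction with an SE of 0.05. Sun2 lies at chr15:79724070-79742536, between the members Myh9, at -0.29 and -0.31 in corrected values, and Cbx6 at chr15:79823896-79834688, at -0.65 and -0.64.

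Hdac7, a class IIa histone deacetylase at chr15:97792664-97844502, was measured at 54.1, 50.9 and 38.4 TPM in MC38-P, 36.5, 35.7 and 53.0 TPM in MC38-LM3a and 58.5, 56.7 and 53.2 TPM in MC38-LM3b. Both derivatives overlapped MC38-P, and MC38-LM3a reached almost to MC38-LM3b through its replicate 3. The relative change was -0.21 and 0.02, or -0.11 and -0.04 after correction with an SE of 0.05. Arid2 and Prkag1, the members on either side, were at -0.68 and -0.61 and at -0.51 and -0.60. These 4 weakly shifted members did not lie next to each other in the order of the members. Tnrc6b, the member just outside this set by uncorrected values in MC38-LM3b, was at -0.32 and -0.01 as deposited and at -0.23 and -0.11 after correction.

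On the log2(TPM + 1) scale, the members with the largest shift were Recql4, Ndrg1 and Cyc1. In TPM, the rare transcript Osmr was lowest of the tested members in MC38-LM3a, and Lifr was below Cyc1 there, whereas Recql4, Cyc1 and Ndrg1 were lowest in MC38-LM3b. Recql4, a RecQ-family DNA helicase at chr15:76703553-76710548, was measured at 21.6, 20.2 and 16.5 TPM in MC38-P, 7.05, 7.00 and 10.3 TPM in MC38-LM3a and 8.91, 8.88 and 8.31 TPM in MC38-LM3b. No derivative library reached a parental one, and the relative change was -1.18 and -1.29, or -1.12 and -1.31 after correction with an SE of 0.07. In TPM it stood at 41.5% and 38.1% of MC38-P relative to the other chromosomes.

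Ndrg1, a hypoxia- and stress-responsive cytoplasmic protein at chr15:66929318-66969640, was measured at 41.3, 42.6 and 39.9 TPM in MC38-P, 16.6, 18.1 and 20.8 TPM in MC38-LM3a and 22.0, 21.4 and 19.3 TPM in MC38-LM3b. Every derivative library was far below MC38-P, and the relative change was -1.13 and -1.17, at 44.4% and 43.0% of MC38-P in TPM relative to the other chromosomes. Cyc1, the cytochrome c1 subunit of respiratory complex III at chr15:76343523-76346260, was measured at 252, 245 and 258 TPM in MC38-P, 129, 126 and 117 TPM in MC38-LM3a and 119, 114 and 125 TPM in MC38-LM3b, with a relative change of -1.03 and -1.30, at 48.7% and 40.3% of MC38-P. Recql4 and Ndrg1 lay below 2 times the chromosome's median, -1.10 and -1.07, in both comparisons, and Cyc1 just outside that limit in MC38-LM3a. Chromosome 15 genes outside the set passed this limit as well, such as Foxred2 at -2.24 and -2.47 and Syngr1 at -1.58 and -1.75. Such a shift is thus not particular to the members. A lower level by more than 1 on the log2 scale, before subtraction of the other chromosomes, at an adjusted p below 0.05 was reached by Recql4, Ndrg1 and Cyc1 in MC38-LM3a, where 1.5% of all genes were that low, and by Recql4 and Cyc1 in MC38-LM3b, where 1.18% were.

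**Figure D5:**
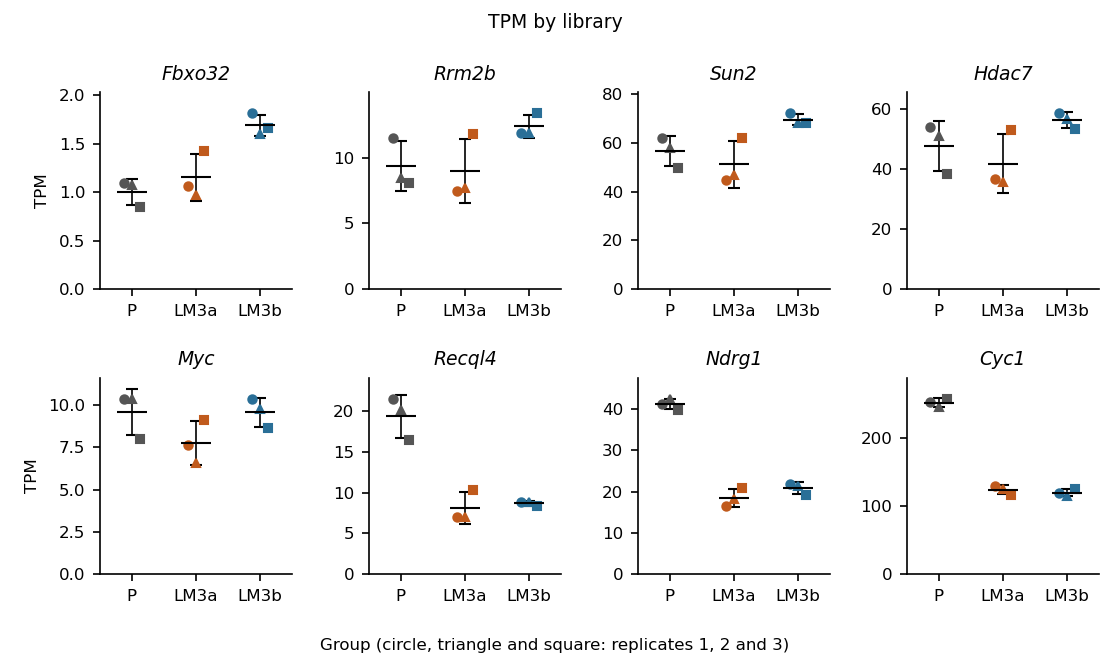
TPM (y axis, from 0) of 8 members in the 3 libraries of each group (x axis), with the group mean and SD as black bars. Fbxo32, Rrm2b, Sun2, Hdac7 and Myc overlap between MC38-P and MC38-LM3a, and Recql4, Ndrg1 and Cyc1 lie lower in every derivative library.

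The promoter sequences of a weakly, an intermediately and an ordinarily shifted member are shown to let their elements be compared. RefSeq promoter entries (GRCm38.p6) were found for 22 of the members, in 31 windows, and none of these belongs to Fbxo32, Rrm2b, Recql4, Ndrg1 or Cyc1. The 250 bases before the start of transcription are printed 5′ to 3′ on the gene's strand for members with a single entry, and capitals mark the GC box GGGCGG, the CCAAT box CCAAT, the TATA box TATAAA and the E-box CACGTG on either strand. The windows lie at chr15:79742537-79742786 (minus strand) for Sun2, chr15:77842176-77842425 (minus strand) for Myh9 and chr15:103240147-103240396 (plus strand) for Hnrnpa1.
Sun2: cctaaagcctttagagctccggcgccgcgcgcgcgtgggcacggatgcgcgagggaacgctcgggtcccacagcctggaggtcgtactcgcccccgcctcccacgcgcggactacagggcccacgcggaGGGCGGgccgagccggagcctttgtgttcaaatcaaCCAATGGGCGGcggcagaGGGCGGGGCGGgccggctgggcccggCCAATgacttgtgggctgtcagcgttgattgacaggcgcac
Myh9: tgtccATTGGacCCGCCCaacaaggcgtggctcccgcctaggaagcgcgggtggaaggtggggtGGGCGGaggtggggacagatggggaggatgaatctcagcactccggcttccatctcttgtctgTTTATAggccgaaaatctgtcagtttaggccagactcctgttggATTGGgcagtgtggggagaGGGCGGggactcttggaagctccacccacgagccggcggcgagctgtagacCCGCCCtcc
Hnrnpa1: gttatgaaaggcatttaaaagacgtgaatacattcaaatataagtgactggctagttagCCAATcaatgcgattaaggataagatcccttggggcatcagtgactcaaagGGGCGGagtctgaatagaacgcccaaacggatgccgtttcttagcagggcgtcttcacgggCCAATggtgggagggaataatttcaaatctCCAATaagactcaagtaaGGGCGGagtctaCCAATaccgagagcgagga

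The Sun2 window held 4 GC boxes, a pair of which share a base, and 2 CCAAT boxes, that of Myh9 4 GC boxes, 2 CCAAT boxes and 1 TATA box, and that of Hnrnpa1 2 GC boxes and 4 CCAAT boxes. Of the members' 31 windows, 71.0% held a GC box, 38.7% a CCAAT box, 12.9% an E-box and 3.23% a TATA box. Of all 32851 windows of this length, 32.7% held a GC box, 33.8% a CCAAT box, 6.02% an E-box and 12.4% a TATA box. Those windows were not matched to the members by expression or chromosome, and the members' 31 windows come from 22 genes. The differences in share were not tested. A match to these letters is not a site of binding, and the weakly shifted Sun2 and the intermediate Myh9 had the same number of GC and CCAAT boxes.

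The derivatives were compared with each other to ask whether the members differ between independently derived lines. In MC38-LM3b against MC38-LM3a, 0 of 55 members passed an adjusted p of 0.05 by limma, where 0.0532% of all genes did, and 31 members had an unadjusted p below 0.05, where 38.1% of all genes did. The median relative difference of the members was 0.07, against -0.01 for all chromosome 15 genes, and 0.01 after correction, where 0 members passed, as did 0.197% of all genes, and 14 had an unadjusted p below 0.05, where 22.5% of all genes did. The smallest unadjusted p was that of Sun2, higher in 3 of 3 MC38-LM3b libraries than in all of MC38-LM3a, with a log2 fold change of 0.45 ± 0.12 (SE) and an adjusted p of 0.119 by limma. The median gene of other chromosomes was higher by 0.21 in the same comparison, so the relative difference of Sun2 was 0.24, and its corrected fold change was 0.15. After correction the smallest was that of Skp2, lower by a log2 fold change of -0.24 ± 0.06 (SE), with an adjusted p of 0.117 by limma. As deposited Skp2 was slightly higher in MC38-LM3b, with a fold change of 0.07 and a relative difference of -0.13, so its direction depends on the centring and the correction.

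The count of 0 rested on MC38-LM3a replicate 3. Without that library 41 members were higher in MC38-LM3b, where 52.2% of all genes were, and 2, Tspo and Eef1d, were lower, where 4.24% of all genes were. Over the 55 members the relative difference correlated with transcript length at Spearman's rho = 0.79, and at 0.30 after correction. A p-value that misses the limit does not show that the derivatives have equal levels.

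Genes that act with the members but lie on other chromosomes had medians near 0. The relative change sets the median of all tested genes on other chromosomes to 0. A broad set of such genes would lie near 0 by that definition, so nothing is read from these medians. Of 191 partner entries, counted by gene symbol, in the complexes and families of the members, 177 were tested on other chromosomes. Their median relative change was 0.01 in MC38-LM3a, with 9 lower and 21 higher at an adjusted p below 0.05 by limma. In MC38-LM3b it was 0.03, with 12 lower and 68 higher. Of all tested genes, 13.8% were lower and 14.1% higher in MC38-LM3a, and 11.2% and 35.6% in MC38-LM3b, beside 5.08% lower and 11.9% higher among the partners in MC38-LM3a and 6.78% and 38.4% in MC38-LM3b. Deptor and Prr5, partners of Rictor in mTOR complex 2, and Prkaa1, the AMPK subunit that pairs with Prkag1, lie on chromosome 15 and were at -1.48 and -1.38, -0.69 and -0.74, and -0.43 and -0.39. The largest rise among partners was that of Derl3, a relative of Derl1, at 1.17 and 1.06, and among those on other chromosomes the largest fall in MC38-LM3a was that of Trib2, a relative of Trib1, at -0.63 and -0.73.

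Members and partners were also set side by side list by list, with the caution that the members were chosen for a lower level and the partners were not, so that the order of the pair mostly restates that choice. Of 45 lists with at least 1 member and 1 partner on another chromosome tested, the mean of the members was lower than the median of those partners in 43 in each comparison, corrected or not. Cyc1 was at -0.94 and -1.11 in corrected values beside -0.02 and -0.15 for 8 other genes of respiratory complex III, Recql4 at -1.12 and -1.31 beside -0.07 and 0.08 for 4 other RecQ helicases, and Rad21 and Nipbl together at -0.53 and -0.51 beside -0.17 and -0.15 for 8 other cohesin genes. Lifr and Osmr, at -0.72 and -0.77, stood beside their shared receptor chain Il6st at -0.30 and -0.31, the kinase Jak1 at 0.35 and 0.37 and the transcription factor Stat3 at 0.39 and 0.33. The exceptions in both comparisons were Hdac7, with a median of -0.24 and -0.35 for the relatives Hdac4 and Hdac5, and Rrm2b, with a median of -0.23 and -0.29 for Rrm1 and Rrm2.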

How the data were processed

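RNA-seq levels were analysed for 9 libraries of cultured cells, 3 each of the parental line and of the derivatives MC38-LM3a and MC38-LM3b. The authors extracted total RNA, enriched poly(A) RNA and made randomly primed libraries, and the deposited values are TPM per gene, rounded to 2 decimals, with 1 library per file. The submitters' processing notes name HISAT and GRCm39, and the counting tool is not given in the sources used here. TPM keep no read depth, so the depth per library is unknown and no counting interval can be given. Strand use in counting is not stated, so overlapping genes cannot be told apart.

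Values were taken as log2(TPM + 1) for genes with at least 1 TPM in 3 libraries and fitted with limma 3.58.1 (R 4.3.3) on all 9 libraries, with a mean-variance trend and Benjamini-Hochberg adjustment. The study used a count model, which TPM do not allow. Genes were placed by Entrez identifier on GENCODE M21 (GRCm38), the build of all coordinates given, since the files carry none. The correction subtracted, in each library, a loess curve (span 0.3) of each gene's deviation from its mean on GC content and log2 of the longest transcript, available for 99.0% of tested genes. The fits were tested on simulated data with noise drawn independently for each gene and library. Shared differences of replicates along transcript length were absent from that test, so their effect on the fits was not tested.

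The members, lists and classes were chosen with earlier results of these data known. Every member is named. Given in full are those above 0 or below 2 times the chromosome's median in both comparisons, those of opposite sign, those nearest to the median, Myc, Rad21 and the most abundant. Kmt2d, Tspo, Pabpc1, Osmr and Cyc1 meet none of these rules and were added after their values were seen. Alternatives covered the pseudocount, the filter, scaling, the replicate block, the correction and each library left out.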

Additional observations from a re-analysis of the deposited data

How the results depend on the processing

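On the scale of relative change, the members' median in MC38-LM3a ranged from -0.63 to -0.56 when each library was left out and was -0.73 without both libraries that stood apart along length (MC38-P replicate 3 and MC38-LM3a replicate 3), an alternative chosen after seeing the data. In MC38-LM3b it ranged from -0.58 to -0.49 with a library left out, and was -0.58 with the GC and length correction, alone or with the replicate block, -0.39 with no filter, -0.46 with quantile normalization and -0.58 without both libraries. The count of lower members in MC38-LM3b, 26 as fitted, was 47 with the correction, alone or with the replicate block, 42 with median centring, 41 with quantile normalization and 43 without both libraries. Leaving out a library gave 19 to 33 lower members in MC38-LM3b and 31 to 52 in MC38-LM3a. Between the derivatives the members' median difference was 0.0104 with the correction, alone or with the replicate block, and 0.15 with no filter, and ranged from 0.06 to 0.09 with a library left out. The count of members that differed between the derivatives ranged from 0 to 43 with a library left out, the 43 without MC38-LM3a replicate 3, and was 47 without both libraries. The cause of these moves was not tested. Same-numbered libraries correlated at -0.66 to 0.07 in their deviations from group means, the -0.66 between both libraries that stood apart. Libraries with unlike numbers were not compared, so these values cannot show whether the numbers pair the samples. The replicate block gave 32 lower members in MC38-LM3a, 18 in MC38-LM3b and 0 that differed between the derivatives. Of 2084 values of single members over these alternatives, 1991 moved by less than the spread between replicates, 92 moved further and 1 whose size exceeded that spread turned positive, Tspo in MC38-LM3a, at 0.0923 without both libraries. Replicates of some members spread widely, as for Kmt2d with an SE of 0.25 as deposited and 0.08 after correction. A move within the spread can thus be sizeable, as for Dab2 in MC38-LM3a, from -0.71 to -0.86 without both libraries. By sign alone 13 values of 6 members changed, all but that of Tspo within the spread: Hdac7 in MC38-LM3b fell below 0 under 5 alternatives, to -0.04 with the correction, Rrm2b in MC38-LM3a was at 0.02 without MC38-P replicate 1, and Trio, Plec and Tnrc6b in MC38-LM3b lay above 0 with no filter. For low transcripts such as Fbxo32, Osmr and Lifr, at about 1 to 4 TPM, the size of a change is uncertain, since the added 1 TPM compresses it.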
